A study of Mus musculus with 14 samples.

Results

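The Vegf family comprised 9 genes here, of 49585 in the deposited tables, chosen by gene name. They were the ligands Vegfa, Vegfb, Vegfc and Pgf, the receptors Kdr, Flt1 and Flt4, and the co-receptors Nrp1 and Nrp2. RNA-seq was carried out on mouse hind limb skeletal muscle in 4 groups of 3 libraries: wild-type (WT) uninjured, Myf6 knockout (KO) uninjured, WT injured and KO injured. Myf6 (MRF4) belongs to the myogenic regulatory factors and is the member most abundant in mature muscle fibres. Neither the design of the knockout allele nor the age and strain of the mice, the kind of injury or the time after it is stated in the labels. Each library carries a number with L (uninjured) or R (injured), read here as the animal and its leg, so that 6 animals gave 12 libraries and the 3 uninjured libraries of a genotype come from the same animals as its 3 injured libraries. The animals of the 2 genotypes have different numbers, and genotype and any litter or batch cannot be told apart. A list of Flag-Myf6 ChIP-seq peaks, from 1 ChIP and 1 control library of primary myotubes grown from satellite cells, was used beside the RNA data.

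Vegf ligands are secreted proteins that act on tyrosine kinase receptors of endothelial cells. Vegfa binds Flt1 and Kdr, and Kdr carries most of its signal for endothelial growth, migration and permeability. Vegfb and Pgf bind Flt1, which also acts as a decoy for Vegfa, and Vegfc acts mainly on Flt4, the receptor of lymphatic endothelium. Nrp1 and Nrp2 are co-receptors that also bind class 3 semaphorins. In skeletal muscle the fibres are a main source of Vegfa, which maintains the capillaries around them.

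All values are reads per 1000000 reads assigned to genes (RPM). Whole reads recovered from them ranged from 1880087 to 49392472 per library, and all 9 genes had reads in every library. Vegfc and Pgf, at 6 and 7 reads in uninjured WT replicate 2, the shallowest library, were the least precise. The targeted gene Myf6 was at 25 to 111 RPM in the uninjured and 47.9 to 121 RPM in the injured WT libraries, against 1.86 to 3.46 and 2.88 to 3.32 RPM in the KO libraries. Injured KO replicate 2 stood apart from the other injured KO libraries. It had the highest share of reads on mitochondrial genes (23.2%, against 3.63 to 22.3% elsewhere) and the highest summed level of 20 endothelial markers (2049 RPM, against 622 to 1129 RPM elsewhere). Its mitochondrial share lay nearer to the WT libraries (8.35 to 22.3%) than to KO animals 1 and 3 (3.63 to 6.76%). Uninjured KO replicate 2, the other leg of the same animal, was at 15.3%, within the WT range. The mean chi-square per gene of injured KO replicate 2 was at most 302.6 against each injured WT library and 136.0 against that other leg. Against injured KO replicates 1 and 3 it was 549.9 and 666.8. Those KO libraries were deeper, and depth can raise this measure. The Myf6 level of injured KO replicate 2, 2.88 RPM, was within the KO range. Injured KO replicate 2 was also the library with the highest value for 7 of the 9 genes, all but Vegfa and Vegfb. The differences between genotypes in injured muscle are therefore given with and without it. Because the members' own values helped to pick it out, results without it are given as a description. By mitochondrial share and chi-square, those results leave out a KO library nearer to injured WT than to its own group.

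The 250 bases before the RefSeq start of Vegfa and of Vegfb are shown because these ligands lay apart in opposite directions between the genotypes. They are from RefSeq, build GRCm38.p6, on the minus strand, at chr17:46032378-46032627 for Vegfa (its first start) and chr19:6987652-6987901 for Vegfb. All 9 genes had a promoter entry there. Capitals mark CANNTG, the E-box core that myogenic factors bind, and ACGTG, a form of the core bound by hypoxia-inducible factors, searched on both strands. The other form of that core, GCGTG, was neither counted nor marked, and the Vegfb stretch holds it in lower case.
Vegfa: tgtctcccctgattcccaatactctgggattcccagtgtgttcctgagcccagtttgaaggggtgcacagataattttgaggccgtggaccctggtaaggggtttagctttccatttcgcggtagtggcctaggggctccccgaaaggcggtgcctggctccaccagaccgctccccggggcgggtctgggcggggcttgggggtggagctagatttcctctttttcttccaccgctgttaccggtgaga
Vegfb: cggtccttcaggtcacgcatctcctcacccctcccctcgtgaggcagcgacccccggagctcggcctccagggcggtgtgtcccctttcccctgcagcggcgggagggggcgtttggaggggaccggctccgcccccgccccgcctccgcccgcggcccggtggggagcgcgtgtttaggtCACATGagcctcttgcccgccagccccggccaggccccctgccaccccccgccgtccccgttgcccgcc
The Vegfa stretch holds no capitals, and the Vegfb stretch holds a single E-box core, CACATG. Over windows of 300 bases (250 before and 50 after a start), CANNTG was found in 72.3% and ACGTG in 19.6% of 32851 RefSeq promoters. The window at the second RefSeq start of Vegfa held 2 matches to CANNTG and 1 to ACGTG. GC content was 62.0% in the first Vegfa window and 75.3% in the Vegfb window, with a median of 52.7% over all promoters. These matches describe the letters in the windows and were not linked to binding.

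Vegfa was the member with the clearest difference between genotypes. In uninjured muscle the WT libraries held 263.6, 179.2 and 192.1 RPM of Vegfa and the KO libraries 76.0, 45.4 and 74.1 RPM. Means came to 212 ± 45.5 and 65.2 ± 17.1 RPM (SD, n = 3 each). Every KO library lay below every WT library. In injured muscle the WT libraries held 249.1, 193.8 and 225.3 RPM and the KO libraries 64.5, 146.7 and 66.8 RPM. Means came to 223 ± 27.7 and 92.7 ± 46.8 RPM (SD, n = 3 each), again without overlap, and the highest KO value was that of replicate 2.

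Differences were tested with limma on log2(RPM + 1) over every gene that reached 1 RPM in 3 or more libraries, with p-values adjusted by the Benjamini-Hochberg method and a threshold of 0.05. With the mean of both legs of each animal as the value, Vegfa fell by 1.53 on the log2(RPM + 1) scale in KO (SE 0.20, 95% interval -1.98 to -1.08, limma adjusted p 0.0162, 3 against 3 animals). Vegfa was the 1 of 9 members called, where 1.23% of 12570 genes tested were called and 0.883% were called lower. Within uninjured muscle the log2 change was -1.70 (SE 0.30) and missed the threshold with a limma adjusted p of 0.0580. Within injured muscle it was -1.36 (SE 0.33) with a limma adjusted p of 0.259. No member was called in either state, where 0.281% of 12460 genes and 0.269% of 12625 genes were called. At an unadjusted limma p under 0.05 there were 2 of 9 members in uninjured muscle, against 1774 of 12460 genes. In injured muscle there was 1 of 9, against 1303 of 12625 genes. These counts are too small to set the members apart from all genes. The 3 comparisons use the same libraries and are not independent of each other.

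The call for Vegfa depended on the libraries included and on the tool, while its sign did not. Without injured KO replicate 2 the log2 change in injured muscle was -1.74 with a limma adjusted p of 0.00250. Without KO animal 2 the change between animals was -1.60 with a limma adjusted p of 0.000483. The number of genes called also went up, to 2343 of 12312 in injured muscle and 2409 of 12323 between animals. Without WT animal 1, 2 or 3 or KO animal 1 the change between animals stayed between -1.40 and -1.63, and the limma adjusted p rose to between 0.0879 and 0.184. In uninjured muscle DESeq2 on the recovered reads gave an adjusted p of 4.56e-06 and edgeR 0.0403, and without uninjured KO replicate 3 the limma adjusted p was 0.0321. The mitochondrial share of reads was 13.8 to 22.3% in uninjured WT and 3.63 to 15.3% in uninjured KO libraries, and scaled to reads outside mitochondrial genes the Vegfa change there was -1.86 (limma adjusted p 0.0188). Macrophages are another source of Vegfa, and 10 macrophage markers summed to 130 to 254 RPM in uninjured WT and 76.2 to 119 RPM in uninjured KO libraries, and their part in the Vegfa values was not tested. The authors' deposited table gives Vegfa a log2 change of -1.52 (q-value 8.72e-05) in uninjured and -1.26 (q-value 0.0982) in injured muscle, written here as KO over WT. The exact two-sided permutation p on log2(RPM + 1) was 0.1 in each state and for the animals, the smallest that 3 against 3 allows. All genes together had a median log2 change of -0.18 in uninjured and 0.01 in injured muscle, and upper quartile scaling moved the first to 0.07. The change in injured minus that in uninjured muscle (the genotype by injury interaction) was 0.34 in log2 units (SE 0.45, limma adjusted p 0.9999).

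**Figure D1:**
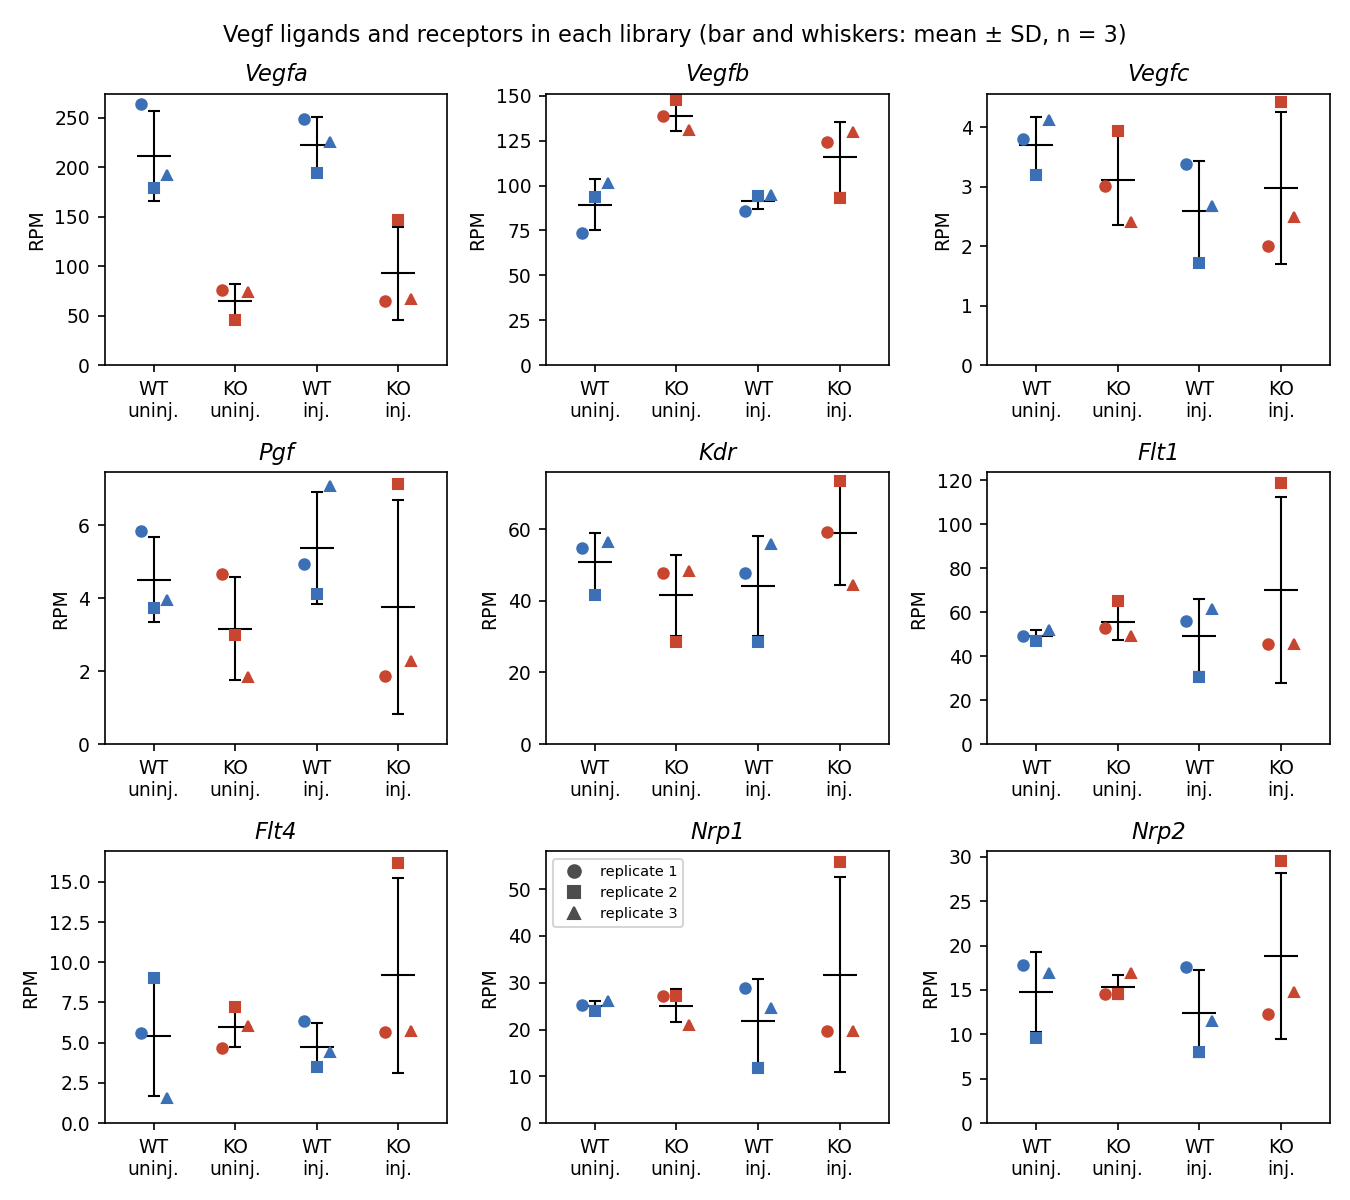
Level of each Vegf ligand and receptor in RPM (vertical axes, each from 0) in the 12 libraries, WT in blue and KO in red, with symbols for replicates 1 to 3, and a bar and whiskers for the mean ± SD (n = 3). Vegfa in KO lies below WT in both states, Vegfb in uninjured KO lies above WT, and injured KO replicate 2 (red square) is the highest library for the other 7 genes.

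Vegfb, a ligand of Flt1 that is abundant in oxidative tissues such as heart and muscle, lay in the opposite direction. In uninjured muscle the values were 73.5, 93.6 and 101.2 RPM for WT libraries and 138.6, 147.6 and 130.7 RPM for KO libraries. The KO libraries were all above the WT libraries. In injured muscle they were 86.0, 94.3 and 94.6 RPM for WT libraries and 124.1, 93.2 and 130.1 RPM for KO libraries, where replicate 2 lay within the WT range and the other KO libraries lay above it. The log2 change was 0.64 (SE 0.24, limma adjusted p 0.279) in uninjured muscle, 0.32 (SE 0.18, limma adjusted p 0.592) in injured muscle and 0.48 (SE 0.18, limma adjusted p 0.238) between animals. Vegfb therefore did not pass the threshold. Without injured KO replicate 2 it was 0.47 with a limma adjusted p of 0.0418, and without KO animal 2 it was 0.53 with a limma adjusted p of 0.0432. Those settings leave out the only injured KO library that lay within the WT range of Vegfb, so they are given as a description. They called 2343 of 12312 and 2409 of 12323 genes. Skeletal muscle markers, 10 genes summed and none at 0, were at 135721 to 147902 RPM in uninjured WT and 179906 to 202178 RPM in uninjured KO libraries, and at 140455 to 175292 and 129906 to 176608 RPM in injured WT and KO libraries, where the ranges overlap. Their part in the Vegfb values was not tested. In bulk tissue, more or fewer cells of a type and more or less RNA per cell cannot be told apart.

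Groups without overlap were found for 2 of the 9 members in uninjured muscle, where 21.7% of all genes tested showed it. Vegfa lay lower and Vegfb higher in KO; of all genes tested, 15.5% lay lower without overlap and 6.2% higher. In injured muscle there was 1 of 9, Vegfa, against 16.9% of all genes (8.63% lower and 8.29% higher in KO). Between animals there were again Vegfa and Vegfb, 2 of 9, against 22.5% (15.5% lower and 6.95% higher). The members' shares were close to or below these backgrounds, so the separation alone does not set the family apart.

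Because both ligands are measured in the same library, their ratio does not depend on how a library is scaled. The ratio of Vegfa to Vegfb reads was 3.59, 1.91 and 1.90 in uninjured WT and 0.548, 0.308 and 0.567 in uninjured KO libraries. In injured muscle it was 2.90, 2.06 and 2.38 in WT and 0.520, 1.57 and 0.514 in KO libraries. Every WT library was above every KO library in this ratio. Vegfa alone already separated the genotypes (179.2 RPM or more in WT, 146.7 RPM or less in KO), so the separation adds no support of its own. Among the KO libraries replicate 2 had the lowest ratio when uninjured and the highest when injured. The ratio shows unequal levels within a library and does not say which ligand differed.

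Vegfa was also set against the summed RPM of the 20 endothelial markers, a ratio chosen after the values were seen and given as a description. It came to 27.8, 22.1 and 18.9% in uninjured WT and 7.05, 4.49 and 8.5% in uninjured KO libraries. In injured muscle it came to 24.6, 31.2 and 19.96% in WT and 7.13, 7.16 and 7.07% in KO libraries. On this scale injured KO replicate 2 was level with the other KO libraries, although its Vegfa RPM was above that of both. The same ratio for Vegfb did not separate the genotypes in injured muscle, at 8.38 to 15.2% in WT and 4.55 to 13.8% in KO libraries.

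**Figure D2:**
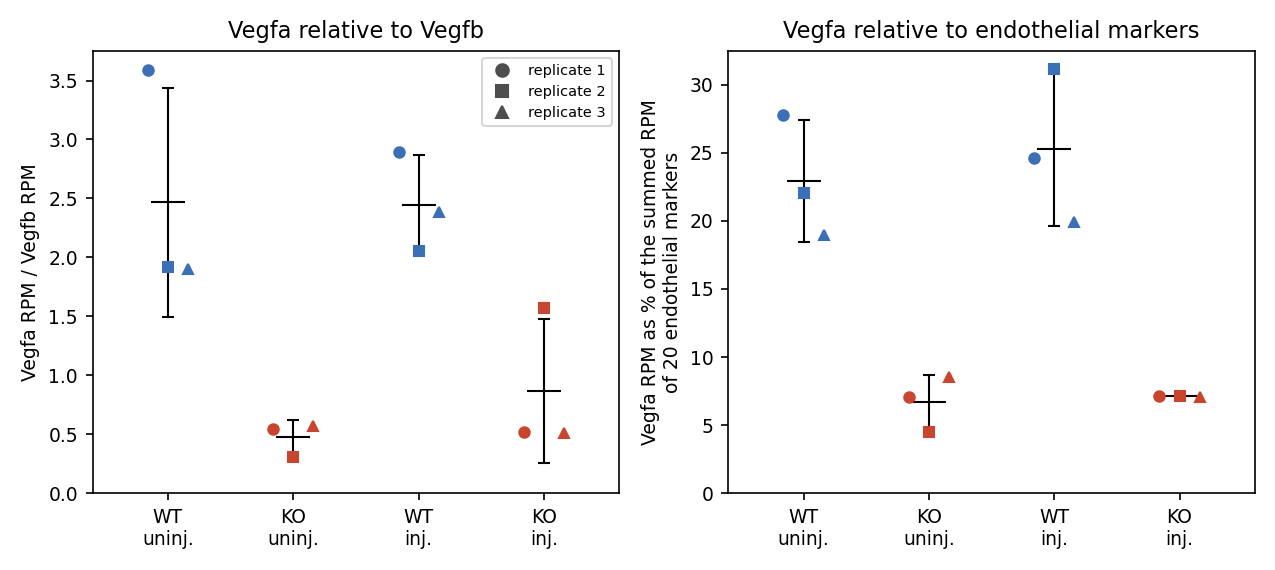
Left, Vegfa RPM divided by Vegfb RPM, and right, Vegfa RPM as a percentage of the summed RPM of 20 endothelial markers, for each of the 12 libraries, WT in blue and KO in red, with a bar and whiskers for the mean ± SD (n = 3). WT lies above KO in both panels, and the 3 injured KO libraries lie between 7.07 and 7.16% on the right.

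Vegfc and Pgf were at low levels. Vegfc was at 3.8, 3.19 and 4.12 RPM in uninjured WT, 3.01, 3.94 and 2.41 in uninjured KO, 3.38, 1.72 and 2.68 in injured WT and 2.01, 4.43 and 2.49 in injured KO libraries. All groups overlapped, and the log2 change between animals was -0.04 (95% interval -0.63 to 0.55, limma adjusted p 0.963), with a sign that turned under upper quartile scaling (0.08). In injured muscle it was 0.13, and -0.12 without KO replicate 2. Pgf, placental growth factor, was at 5.86, 3.72 and 3.95 RPM in uninjured WT, 4.68, 2.99 and 1.85 in uninjured KO, 4.95, 4.12 and 7.08 in injured WT and 1.87, 7.14 and 2.29 in injured KO libraries. KO replicates 1 and 3 were below all injured WT libraries and replicate 2 was above them. The log2 change of Pgf was -0.56 (SE 0.42, limma adjusted p 0.688) in injured muscle with all libraries, and -1.03 (limma adjusted p 0.0298) without injured KO replicate 2. That setting leaves out the library with the highest Pgf value and called 2343 of 12312 genes. Between animals the Pgf change was -0.50 (limma adjusted p 0.432), and -0.73 without KO animal 2 (limma adjusted p 0.0650).

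No receptor was called in any comparison of the genotypes. Kdr, the main signalling receptor for Vegfa, was at 54.6, 41.5 and 56.3 RPM in uninjured WT, 47.7, 28.5 and 48.2 in uninjured KO, 47.7, 28.6 and 56.0 in injured WT and 59.1, 73.4 and 44.3 in injured KO libraries. Its groups overlapped in both states. The log2 change of KO against WT was -0.31 (95% interval -0.998 to 0.372) in uninjured, 0.43 (95% interval -0.28 to 1.15; 0.26 without injured KO replicate 2) in injured muscle and 0.06 (95% interval -0.46 to 0.58) between animals, and the last became -0.02 when scaled to reads outside mitochondrial genes.

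Flt1, which binds Vegfa, Vegfb and Pgf, was at 49.0, 46.8 and 51.98 RPM in uninjured WT, 53.0, 65.0 and 49.1 in uninjured KO, 56.0, 30.6 and 61.4 in injured WT and 45.7, 119.0 and 45.5 in injured KO libraries. Injured KO replicate 2 was far above the other 2 libraries of its group, which lay inside the WT range. The log2 change between animals was 0.28 (95% interval -0.37 to 0.94, limma adjusted p 0.677), and -0.0004 without KO animal 2. In injured muscle it was 0.40, and -0.05 without KO replicate 2. As a percentage of the endothelial marker sum, Flt1 ranged only from 4.81 to 6.43% over all 12 libraries. Injured KO replicate 2 was at 5.81% on that scale.

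Flt4, the receptor for Vegfc, was at 5.63, 9.04 and 1.58 RPM in uninjured WT, 4.68, 7.24 and 6.06 in uninjured KO, 6.38, 3.48 and 4.40 in injured WT and 5.65, 16.2 and 5.75 in injured KO libraries. It varied most of the 9 genes, by a factor of 10.2 between its lowest and highest library. The log2 change between animals was 0.51 (95% interval -0.29 to 1.31, limma adjusted p 0.520), and 0.22 when KO animal 2 or, separately, WT animal 3 was left out. In injured muscle it was 0.70, and 0.25 without KO replicate 2. In uninjured muscle it was 0.31, and -0.24 without WT replicate 3, the library at 1.58 RPM.

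Nrp1, a co-receptor of Kdr for Vegfa, was at 25.3, 23.9 and 26.1 RPM in uninjured WT, 27.2, 27.2 and 20.9 in uninjured KO, 28.9, 11.7 and 24.7 in injured WT and 19.6, 55.8 and 19.7 in injured KO libraries. The groups overlapped in both states, and the log2 change between animals was 0.22 (95% interval -0.47 to 0.90, limma adjusted p 0.770) and -0.06 without KO animal 2. In injured muscle the Nrp1 change was 0.44, and -0.05 without KO replicate 2. Nrp2, which pairs with Flt4 in lymphatic endothelium, was at 17.8, 9.57 and 16.9 RPM in uninjured WT, 14.5, 14.6 and 16.9 in uninjured KO, 17.6, 7.97 and 11.6 in injured WT and 12.3, 29.5 and 14.7 in injured KO libraries. Its groups overlapped too, with a log2 change between animals of 0.31 (95% interval -0.35 to 0.98, limma adjusted p 0.646), of 0.15 without KO animal 2 and of 0.05 without WT animal 2. In injured muscle the Nrp2 change was 0.53, and 0.17 without KO replicate 2. The intervals of all 5 receptors and co-receptors include 0 and do not show that the genotypes had equal levels.

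**Figure D3:**
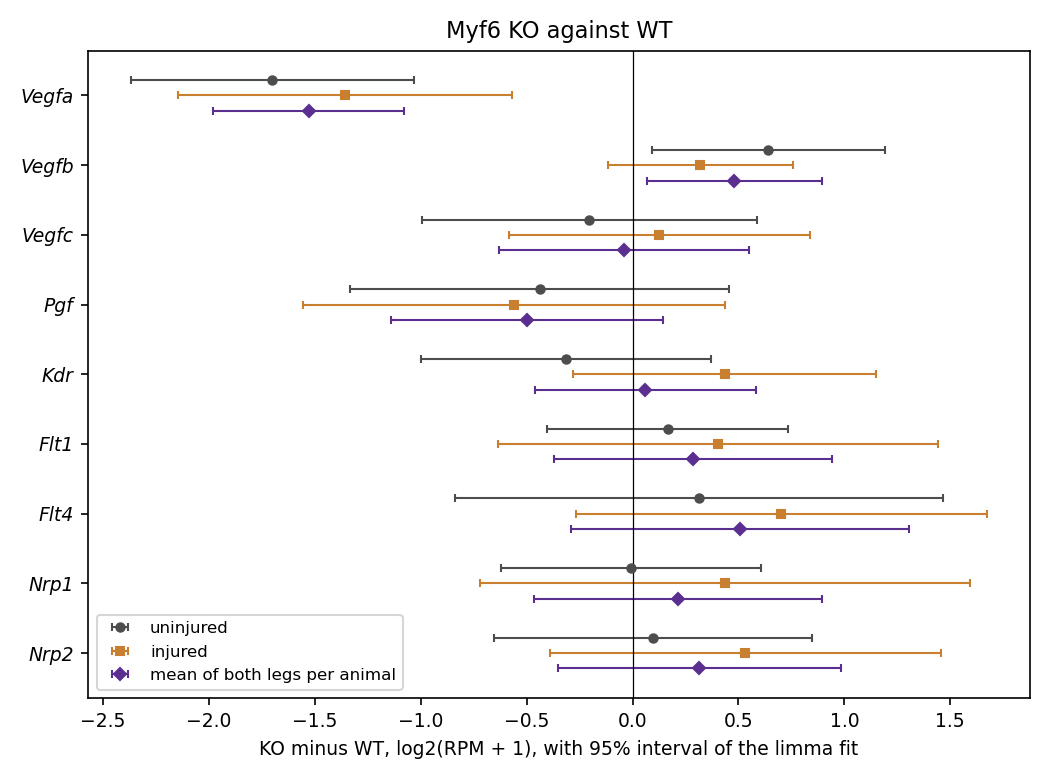
Difference between KO and WT for each member on the log2(RPM + 1) scale (horizontal axis), with the 95% interval of the limma fit, for uninjured muscle, injured muscle and the mean of both legs per animal. The intervals of Vegfa lie below 0 in all 3 fits, those of Vegfb lie above 0 in uninjured muscle and between animals, and those of the other 7 members include 0.

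Receptors and endothelial markers were high or low together in the 2 libraries with the most extreme endothelial sums. In injured KO replicate 2 the 5 receptors and co-receptors were at 1.53 to 2.83 times their median over the 12 libraries, and the endothelial sum was at 2.09 times its median. In injured WT replicate 2, the library with the lowest endothelial sum, they were at 0.47 to 0.61 times their medians, with the sum at 0.634 times its median. The part of endothelial content in the receptor values was not tested. Elsewhere they parted: Flt4 was at 0.277 times its median in uninjured WT replicate 3 (sum at 1.03) and at 1.59 in uninjured WT replicate 2 (sum at 0.828), and Kdr was at 0.594 in uninjured KO replicate 2 (sum at 1.03). Kdr also parted from Flt1 in KO animal 2, where the ratio of Flt1 to Kdr reads was 2.28 in the uninjured and 1.62 in the injured leg, against 0.773 to 1.17 in the other 10 libraries. The ratio of Nrp1 to Flt1 reads stayed between 0.383 and 0.516 in all libraries.

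**Figure D4:**
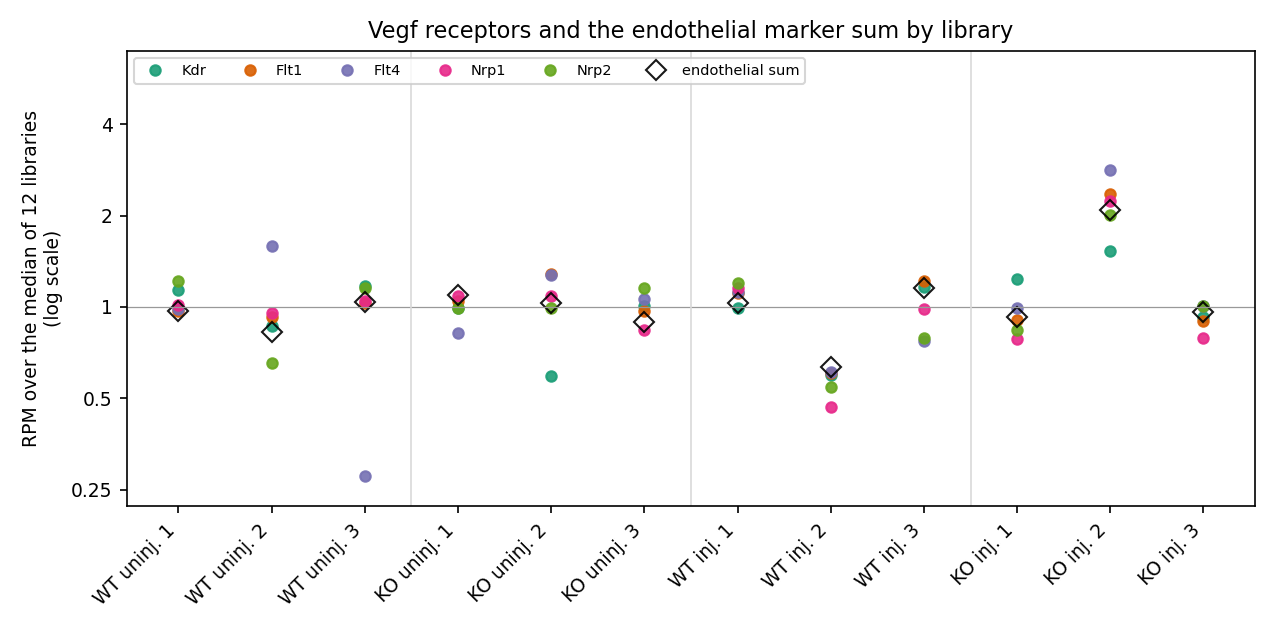
RPM of the 5 receptors and co-receptors (filled circles) and of the summed 20 endothelial markers (open diamonds) in each of the 12 libraries, divided by the median over those libraries, on a log axis. In injured KO replicate 2 all lie between 1.53 and 2.83, and in injured WT replicate 2 all lie between 0.47 and 0.63.

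Injury was compared within each genotype in a fit of all 12 libraries. No member was called in WT, in KO or for the interaction, and no gene of 13337 tested was called either, that is 0% in each. At an unadjusted p under 0.05 no member passed, against 172 genes in WT, 468 in KO and 208 for the interaction, and edgeR and DESeq2 on the recovered reads also called no gene. In WT, Vegfa differed by 0.09 on the log2 scale between injured and uninjured muscle (95% interval -0.61 to 0.78), Vegfb by 0.05 (95% interval -0.40 to 0.49) and Kdr by -0.24 (95% interval -0.90 to 0.42). In KO, Vegfa differed by 0.43 (95% interval -0.27 to 1.13), Vegfb by -0.27 (95% interval -0.72 to 0.17) and Kdr by 0.51 (95% interval -0.16 to 1.17). The injured minus uninjured difference of Vegfa was 1.67 in KO animal 2 and -0.23 and -0.15 in KO animals 1 and 3. Without injured KO replicate 2 the differences in KO were 0.048 for Vegfa, -0.13 for Vegfb and 0.34 for Kdr, and the Vegfa interaction was -0.04. With the animal as a block, which pairs the legs, no gene was called either. By animal, Kdr, Vegfc and Nrp2 were lower in the injured leg of 3 of 3 WT animals, and Vegfb in that of 3 of 3 KO animals, without passing the test. A shared sign in 3 animals is common without any effect. Its share over all genes was not counted, so it does not set these members apart. The 9 members' differences ranged from -0.41 to 0.21 in WT and from -0.27 to 0.51 in KO, and all genes together had medians of 0.09 and 0.29.

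The other genes of the pathway were read from lists chosen with earlier results of these data known. Of 51 genes of Vegf signalling downstream of the receptors, including the ligand Vegfd, 46 were tested between animals and 1 was called. This was Pik3cd, the catalytic delta subunit of phosphoinositide 3-kinase, found mainly in leukocytes. Pik3cd was at 26.7, 22.9 and 24.97 RPM in uninjured WT and 7.53, 3.15 and 4.79 in uninjured KO, and at 28.2, 25.8 and 23.5 in injured WT and 7.90, 11.2 and 6.30 in injured KO libraries. Between animals Pik3cd fell by 1.83 on that log2 scale, with an SE of 0.21 and a limma adjusted p of 0.00870. Without WT animal 1, 2 or 3 or KO animal 1 the limma adjusted p was 0.0656 to 0.133, and without KO animal 2 it was 0.000606. The list's median log2 change was 0.09, against -0.08 for all genes. The macrophage marker sum, lower in uninjured KO libraries as given above, was at 157 to 217 and 129 to 141 RPM in injured WT and KO libraries. Of its 10 genes, 9 were tested between animals, all had estimates below 0, none was called, and 1 was at 0 in a library. Their part in the Pik3cd values was not tested.

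None of the 27 tested genes of the hypoxia response and of Vegfa regulation was called between animals or in either state. Between animals 5 of the 27 had an unadjusted limma p under 0.05, as did 2058 of all 12570 genes tested. That count does not set the list apart. The smallest p-values belonged to Pfkfb3, a glycolytic regulator and hypoxia target, with a log2 change of -0.85 (limma adjusted p 0.114), to Egln2, a prolyl hydroxylase that marks hypoxia-inducible factors for degradation, with 0.81 (limma adjusted p 0.155), and to Hif1an, an asparaginyl hydroxylase that inhibits them, with 1.16 (limma adjusted p 0.16). Without KO animal 2 all 3 passed, with changes of -0.70, 1.04 and 1.60 and limma adjusted p of 0.0199, 0.00249 and 0.000352. That setting called 2409 of 12323 genes, a background that also holds for the other passes without KO animal 2 given below. The median of the list with all animals was 0.0016, against -0.08 for all genes. Of 10 tested semaphorins and plexins, the other partners of the neuropilins, none was called, and the smallest p-values were those of the receptor Plxna4 (1.09, limma adjusted p 0.120), of Sema3g (0.78, limma adjusted p 0.197) and of Plxna2 (0.46, limma adjusted p 0.382). Without KO animal 2, Plxna4 (0.96, limma adjusted p 0.0458) and Sema3g (0.92, limma adjusted p 0.0291) passed. Of 19 tested genes of other angiogenic pathways none was called, and the first by p were the growth factor Pdgfa (-0.70, limma adjusted p 0.190), the protease Adamts1 (-0.55, limma adjusted p 0.311) and the Notch ligand Dll4 (0.62, limma adjusted p 0.359). Pdgfa passed without KO animal 2 (-0.90, limma adjusted p 0.00717).

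Cell type markers were read in the same way. None of the 20 endothelial markers was at 0 in any library and none was called between animals, and the first by p were the transcription factor Sox18 (0.88, limma adjusted p 0.223), the adhesion molecule Pecam1 (0.44, limma adjusted p 0.347) and the transcription factor Tal1 (-0.53, limma adjusted p 0.365). Their summed level was 812 to 1015 RPM in uninjured WT and 872 to 1077 RPM in uninjured KO libraries. Of the 10 mural cell markers none was called, with Acta2 (0.99, limma adjusted p 0.191), Myh11 (0.88, limma adjusted p 0.232) and Rgs5 (-0.19, limma adjusted p 0.684) first. Of 5 tested lymphatic markers only Pdpn was called. Podoplanin, its product, is a glycoprotein of lymphatic endothelium that fibroblasts also carry. Pdpn was at 11.2, 9.57 and 9.95 RPM in uninjured WT and 3.69, 1.81 and 2.36 in uninjured KO, and at 12.6, 8.95 and 11.5 in injured WT and 3.72, 6.53 and 3.04 in injured KO libraries. Between animals Pdpn fell by 1.43 on that log2 scale, with an SE of 0.22 and a limma adjusted p of 0.0292. Without KO animal 2 the limma adjusted p was 0.00254, and with any other animal left out it was 0.0822 to 0.229. Fibroblast and fibroadipogenic markers, 7 genes summed, were at 438 to 1247 RPM in uninjured WT and 397 to 875 RPM in uninjured KO libraries, and their part was not tested. The other 4 tested lymphatic markers lay on both sides of 0 and were not called, namely Ccl21a (0.61, limma adjusted p 0.329), Mmrn1 (0.20, limma adjusted p 0.790), Reln (-0.15, limma adjusted p 0.858) and Lyve1 (-0.50, limma adjusted p 0.541). In injured muscle, where all 6 were tested and none was called, Mmrn1, Reln, Prox1 and Ccl21a had estimates of 0.61 to 0.62 and Pdpn and Lyve1 of -1.19 and -0.41. Prox1, the defining transcription factor, was at 0 in uninjured KO replicate 2 and at 2.88 RPM or less in the others.

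Pdpn was also among the genes most like Vegfa. Likeness was taken as Pearson's r of log2(RPM + 1) over the 12 libraries, which share animals, among 13337 genes, and is a description. The 5 highest for Vegfa were Exd2 (0.985), Ttll4 (0.981), Wdr60 (0.980), Pdpn (0.979) and Ice1 (0.979). These r span both genotypes, so a difference between genotypes shared by 2 genes raises them. With group means taken out, r was 0.925, 0.921, 0.922, 0.887 and 0.957 in the same order. Exd2 was at 64.4 to 82.1 RPM in uninjured WT, 17.7 to 28.5 in uninjured KO and 70.1 to 81.3 in injured WT libraries. In injured KO it was at 24.9, 54.8 and 25.6 RPM, the same pattern of a high replicate 2 as for Vegfa. Ice1, at 22.6, 72.4 and 21.97 RPM in injured KO libraries, shared it. For Flt1 the 5 highest were Tie1 (0.957), Nrp1 (0.955), Cpne8 (0.951), Tmem204 (0.950) and Plekha7 (0.939), of which Tie1 is an endothelial receptor kinase. Like Flt1, all 5 were highest in injured KO replicate 2 and lowest in injured WT replicate 2. How far these r rest on those libraries was not tested. Cpne8 and Plekha7 were at low levels, down to 1.31 and 0.973 RPM. For Kdr the 5 highest were Gm31812 (0.945), Cttn (0.923), Tk2 (0.915), Rasl12 (0.914) and Prom1 (0.913), and Gm31812 was at 1.77 RPM or less in every library. Like Kdr, all 5 were highest in injured KO replicate 2 and lowest in uninjured KO replicate 2.

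The ChIP-seq list was read for peaks near the members' starts. It holds 12898 peaks with a median fold enrichment of 7.68, and each peak's fold and q-value are the authors'. Within 10 kb of a RefSeq start, 1 of the 9 members had a peak summit, as did 12.6% of 17492 protein-coding genes. That peak lies upstream of Vegfa at chr17:46036562-46036724 (mm10), is 163 bp long, and has its summit 4.27 kb before the first start. Its fold enrichment was 9.66 and its −log10 q-value 17.9, and 72.8% of the peaks had a lower fold. Vegfa was the nearest RefSeq start to the peak, which lies outside the span of Vegfa at chr17:46016993-46032377. With the window at 50 kb, 5 of the 9 members had a peak, against 39.1% of genes, and with a fold of at least 10 within 10 kb none had, against 3.54%. The member counts are too small to set the family apart from these backgrounds.

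The other peaks within 50 kb lay farther off. Near Vegfb, summits were 11.4 kb downstream of the start (fold 8.98) and 19.8 kb upstream (fold 11.6), and their nearest starts were those of Ppp1r14b, at 1.21 kb, and Trpt1. The peak near Pgf was 31.7 kb upstream (fold 9.11), with Eif2b2 as the nearest start. Inside Nrp1, 41.4 kb after the start, a peak had a fold of 14.5, the highest near any member, with Nrp1 as the nearest start. Nrp2 had a peak 20.7 kb upstream (fold 7.73) and 2 within its gene body at 76.9 and 80.9 kb (fold 9.06 and 4.19). For Vegfc, Kdr, Flt1 and Flt4 the nearest summits were 424, 363, 124 and 205 kb away. Peaks came from cultured myotubes and RNA from whole muscle, and with 1 ChIP library there is no replicate check of a peak.

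**Figure D5:**
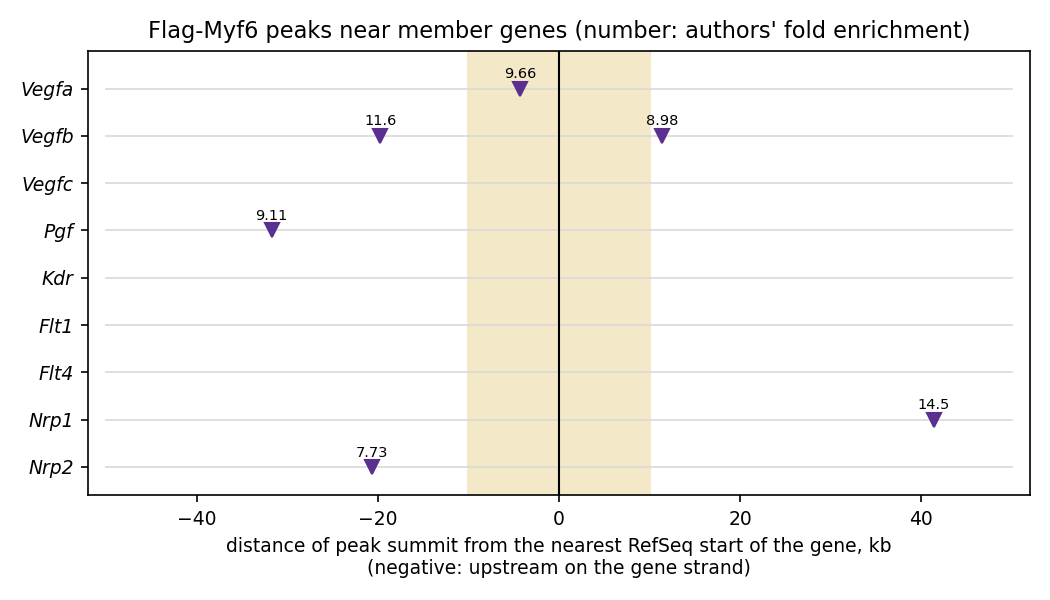
Summits of Flag-Myf6 peaks within 50 kb of the nearest RefSeq start of each member, by distance in kb along the gene's strand (negative values upstream), with the authors' fold enrichment printed above each triangle and the window of 10 kb shaded. Vegfa has the only summit inside the shaded window, 4.27 kb upstream with a fold of 9.66.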

How the data were processed

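Libraries were built with TruSeq RNA v2 chemistry, per the labels' protocols. The authors deposited RPM values for 49585 genes, 1 table for uninjured and 1 for injured muscle, with a log2 fold change (WT over KO, sign turned here), its p-value and its q-value. The submitters' processing notes name HISAT2 2.1.0, Bowtie 1.1.0, MACS2 2.1.0.20140616, SAMtools, featureCounts and DESeq2, and the builds mm10 and GRCm38.p5, without saying which served which step; use of strand is not given in the sources used here. Antisense or overlapping transcripts (RefSeq lists some within the spans of Vegfc, Kdr, Flt1, Nrp1 and Nrp2, none within those of the other 4) could add reads. The deposited peak list gives a fold enrichment and a −log10 q-value per peak, called with MACS2 at a q cutoff of 0.05, per the file headers.

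The main test was limma 3.58.1 (R 4.3.3; lmFit, eBayes with trend) on log2(RPM + 1), two-sided, over genes that reached 1 RPM in 3 or more libraries or animals. KO against WT used the 6 libraries of a state, or 6 animals with both legs averaged on the log2 scale, and injury and interaction all 12 libraries. Whole reads were recovered from the RPM steps (100% of values up to 1000 reads whole within 0.1 read) for edgeR 4.0.16, which called 55 genes in uninjured and 33 in injured muscle, and DESeq2 1.42.0. No 2 libraries agreed within sampling noise. A self-test of the limma fit on simulated data, for the uninjured comparison only, preceded the fits. Its outcome is not given here and lends no support to the calls. For injury the same number is read as the same animal, which the labels do not say. Same-number deviations correlated at 0.28, -0.23 and 0.02 in WT and at 0.02, 0.50 and 0.63 in KO. The means with the other numbers were -0.13, 0.15 and -0.04 in WT and -0.06, -0.46 and -0.06 in KO. P-values measure the spread between these animals or libraries.

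All members are named. Other lists were read for called genes or else the 3 with the smallest p, and likeness for Vegfa, Kdr and Flt1 for the 5 highest r. Members and lists were chosen with earlier results of these data known. Alternatives were a pseudocount of 0.1, no filter, upper quartile scaling, scaling to reads outside mitochondrial genes, DESeq2, edgeR, a replicate block, each library or animal left out, the authors' deposited q-values, and for peaks a window of 50 kb or a fold of at least 10. The sequence under the peaks was not analysed here.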

Additional observations from a re-analysis of the deposited data

How the results depend on the processing

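Over all alternatives Vegfa kept its sign in the KO against WT fits, with log2 changes of -1.86 to -1.41 in uninjured muscle, -1.74 to -1.15 in injured muscle and -1.63 to -1.38 between animals, and passed the limma threshold or its equivalent in 7 of 14, 2 of 14 and 5 of 10. It was the 1 member called in uninjured muscle under upper quartile scaling, scaling outside mitochondrial genes, DESeq2, edgeR, the replicate block and the authors' deposited q-values, and in injured muscle under DESeq2. Between animals 0 members were called with no filter. Leaving out 1 library gave 0 to 1 members in uninjured and 0 to 3 in injured muscle, and leaving out 1 animal 0 to 2. The 3 came without injured KO replicate 2, where 2343 of 12312 genes were called. The 2 came without KO animal 2, where 2409 of 12323 were called. The alternatives tested fewer samples there, and the cause of the other changes was not tested.

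Counts of all genes called moved far more. In uninjured muscle the 35 became 20 with a pseudocount of 0.1, 1 with no filter, 162 under upper quartile scaling, 199 outside mitochondrial genes, 663 with DESeq2, 55 with edgeR and 331 by the authors' deposited q-values, and 3 to 84 with a library left out. Upper quartile scaling put 110 of the 162 higher in KO, scaling outside mitochondrial genes 31 of the 199, and the main fit 16 of the 35. In injured muscle the 34 became 19 with no filter, 427 with DESeq2, 225 by the authors' q-values and 0 to 2343 with a library left out, the highest without KO replicate 2. Between animals the 155 became 89, 35 and 274 with the pseudocount, no filter and non-mitochondrial scaling, and 5 to 2409 with an animal left out, the highest without KO animal 2. The 0 for injury in KO became 0 to 1. Between animals Pdpn also missed the limma threshold with no filter (adjusted p 0.0945), and Pfkfb3 passed outside mitochondrial genes (limma adjusted p 0.0482).

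Blocking on the replicate number, 752 genes were called in uninjured and 0 in injured muscle for KO against WT. Numbers there name different animals, and same-number deviations correlated at 0.04, 0.26 and 0.37 in uninjured and -0.45, -0.60 and -0.30 in injured muscle. Vegfa in uninjured muscle had a limma adjusted p of 0.00205 with the block. For injury and interaction the block (the animal) left 0 calls.

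Signs turned for these uncalled estimates. Vegfc in uninjured muscle was 0.042, 0.030, 0.0233 and 0.0326, and Nrp1 0.28, 0.26, 0.25 and 0.27, under upper quartile scaling, DESeq2, edgeR and the authors' table. Under non-mitochondrial scaling Nrp2 in uninjured muscle was -0.0506, Kdr between animals -0.0214, Vegfa for injury in WT -0.0184 and Vegfb for injury in WT -0.0584. Vegfc between animals was 0.0835 under upper quartile scaling. Vegfa for injury in WT was -0.0174 with DESeq2 and -0.000828 with edgeR, and Vegfb there -0.0377 under upper quartile scaling, -0.0554 with DESeq2 and -0.0384 with edgeR. With a library or animal left out, values ranged as follows. In uninjured muscle Nrp2 ran from -0.17 to 0.25, Flt4 from -0.24 to 0.74 and Nrp1 from -0.0686 to 0.113. In injured muscle Vegfc ran from -0.12 to 0.30, Flt1 from -0.0513 to 0.632 and Nrp1 from -0.0475 to 0.683. Between animals Vegfc ran from -0.232 to 0.0603, Kdr from -0.15 to 0.20, Flt1 from -0.000395 to 0.441 and Nrp1 from -0.057 to 0.396, and the lymphatic marker Reln from -0.433 to 0.0255. For injury in WT Vegfa ran from -0.0221 to 0.255, Vegfb from -0.0873 to 0.141 and Kdr from -0.435 to 0.0367, and the Vegfa interaction from -0.0391 to 0.547. Members with a peak numbered 5 within 50 kb and 0 at a fold of at least 10. Depth limits Vegfc and Pgf most, at 6 and 7 reads in the shallowest library.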
